A study of Mus musculus with 6 samples.

Results

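The genes described here are the classical protein tyrosine phosphatases, the enzymes that remove phosphate from tyrosine residues, in mouse acute myeloid leukemia with and without PPARA. They were taken as the genes whose symbol is Ptpn with a number (cytosolic type) or Ptpr with a letter and an optional number (receptor type) and which had an array row paired with that gene alone. By this rule there were 37 genes, 20 of receptor type and 17 of cytosolic type, among 30743 named genes on the array. Each had 1 row, so no choice between rows was needed. Ptprt, a further gene of that name pattern, was not analysed here.

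There were 6 arrays, 3 of Ppara-/- and 3 of Ppara+/+ leukemia. In both groups a retrovirus had introduced the MLL-AF9 fusion oncogene together with green fluorescent protein (GFP) into marrow cells, and the GFP-positive leukemia cells were sorted from the bone marrow of secondary recipient mice. The Ppara-/- cells have no working copy of Ppara, the gene of a fatty-acid-responsive nuclear receptor, and Ppara+/+ cells have it intact. The labels do not state ages, the genotype of the recipients or whether replicates came from separate primary leukemias. The p-values therefore reflect only how far these 6 samples vary, which may be technical variation.

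Tyrosine phosphorylation is set by kinases and phosphatases acting against each other. In blood cells the receptor-type phosphatase CD45 (Ptprc) keeps Src family kinases ready for activation, while cytosolic phosphatases with SH2 domains, Ptpn6 and Ptpn11, bind phosphorylated receptors and adaptors and damp or relay their signals. Ptpn11 carries activating mutations in some human myeloid leukemias.

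The values are log2 signals per array row as deposited, and the genotypes are compared only between arrays for the same gene. Levels are set beside other genes or control rows only to describe how bright a signal is. Array background was gauged by 5222 negative-control rows, whose medians lay between 4.63 and 4.81 on 4 arrays, at 4.99 on Ppara-/- replicate 2 and at 5.16 on Ppara+/+ replicate 1. The 95th percentile of these controls was 7.91 to 8.23. Of 11 measured markers of myeloid leukemia and progenitor cells, 9 had a mean above the average of these percentiles, and Cd34 and Kit did not. Differences between genotypes were negative in 8 of the 11, 0 were called, and 3 had an unadjusted p under 0.05 (Csf1r at -0.94, Cd34 at -0.87 and Kit at 0.54). Among the bright ones were Mpo at a mean of 11.61 in Ppara-/- and 11.66 in Ppara+/+ samples, Elane at 12.45 and 12.60 and the myeloid integrin Itgam at 11.15 and 11.09. Of the 9 measured macrophage and monocyte markers, 7 had a negative difference and 1, Vcam1, was called lower (-1.39, limma adjusted p = 0.0374). Over all genes 0.117% were called. An unadjusted limma p under 0.05 was found for 5 of these 9, all with negative differences, against 5.74% of all genes. The summed log2 level of these markers ran from 61.2 to 62.8 in Ppara-/- arrays and from 65.2 to 67.3 in Ppara+/+ arrays, with the macrophage receptor Mrc1 under the negative-control medians in both (3.88 and 3.81). The part of this shift in the phosphatase values was not tested. Of the measured markers of T cells (8), B cells (9), NK cells (8), erythroid cells (7) and megakaryocytes (6), 0 had a mean above the average 95th percentile and 0 were called. Of 10 markers of marrow stroma and endothelium 1, Pecam1, was above that percentile and 0 were called. Among these 10, Pdgfrb differed by -1.03 (limma adjusted p = 0.0719). Fewer cells of a type and less RNA per cell cannot be told apart in such bulk samples.

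Ptpn3 was the 1 phosphatase gene of 37 that passed the test between genotypes. It rose in Ppara-/- leukemia, and the other 36 members did not pass, in either direction. Over all genes 0.117% were called, 0.0585% higher and 0.0585% lower (limma's moderated test, Benjamini-Hochberg adjusted p under 0.05 over 30743 genes). Among the members 5 had an unadjusted p under 0.05, against 5.74% of all genes. The genotypes did not overlap in 6 members, 4 with Ppara-/- above and 2 with Ppara-/- below, whereas 8.74% of all genes showed such separation (5.11% above and 3.62% below).

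Ptpn3 encodes a cytosolic phosphatase with a FERM domain, which binds membrane proteins, and a PDZ domain. Its log2 signal was 6.04, 6.25 and 5.80 in the Ppara-/- samples, against 4.70, 5.03 and 5.02 in the Ppara+/+ samples. All 3 Ppara-/- values lay above all 3 Ppara+/+ values, with a gap of 0.77 between the nearest. The means were 6.03 ± 0.23 and 4.92 ± 0.19 (SD, n = 3 each), a log2 difference of 1.11 (SE 0.15, 95% interval 0.78 to 1.45), which is a signal ratio of 2.16 (limma adjusted p = 0.0438). An exact permutation test of this gene alone gave a two-sided p of 0.1, the smallest that 3 arrays against 3 allow.

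The Ptpn3 signal was dim. It exceeded 75.7%, 73.0% and 71.8% of the negative-control rows of the same array in Ppara-/- samples, and 40.4%, 57.6% and 53.3% in Ppara+/+ samples. Against the negative-control median of its own array it stood 1.41, 1.26 and 1.15 higher in Ppara-/- samples, and -0.46, 0.36 and 0.21 in Ppara+/+ samples. The Ppara+/+ signal was therefore near that of control probes without a target, so the ratio of signals need not equal the ratio of RNA. The difference lay between 0.90 and 1.23 in 16 other fits, and all 16 were positive. It stays at 1.11 by construction where only the prior, the gene filter, the averaging of rows or a replicate block was changed. Because the groups did not overlap, fits that only left out arrays had to be positive. Both ends of the range came from leaving out arrays, while the 3 other normalizations each gave 1.09. The call held in 4 of those 16, including the mean of all rows of a gene, which uses the same single row for Ptpn3. It was lost when any of the 6 arrays was left out (limma adjusted p = 0.261, 0.107 and 0.0534 on omitting Ppara-/- replicates 1, 2 and 3, and 0.0794, 0.0642 and 0.145 on omitting Ppara+/+ replicates 1, 2 and 3). It was also lost with the 3 other normalizations (adjusted p = 0.0800 to 0.170).

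**Figure D1:**
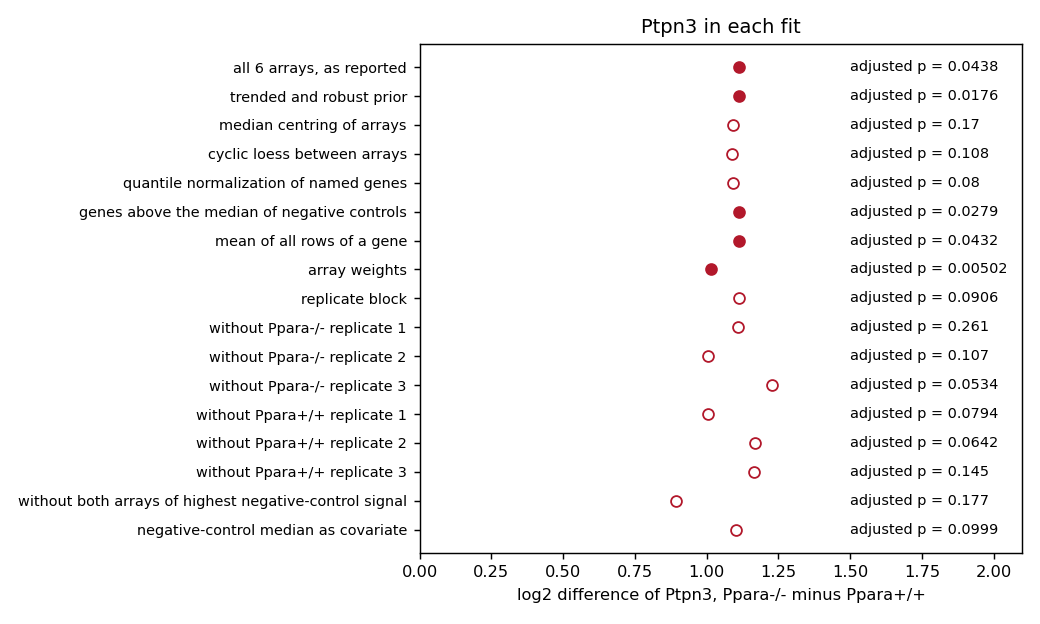
The log2 difference of Ptpn3, Ppara-/- minus Ppara+/+, is plotted for the fit of all 6 arrays and for 16 other fits (rows), with the adjusted p of each at the right. Filled points have an adjusted p under 0.05. All differences lie between 0.90 and 1.23, and 5 of the 17 points are filled.

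None of the 4 other FERM-domain phosphatases passed the test. Ptpn4, its closest relative by domain layout, had a log2 signal of 5.56, 5.87 and 5.61 in Ppara-/- samples and 6.01, 5.45 and 5.42 in Ppara+/+ samples, and the Ppara-/- range lies within the Ppara+/+ range. The difference was 0.05 with a 95% interval of -0.34 to 0.45. For Ptpn13, which combines the FERM domain with several PDZ domains, and for Ptpn14 and Ptpn21, which have the FERM domain alone, the differences were 0.04, 0.08 and 0.07, each with overlapping groups. On chromosome 4 the nearest protein-coding genes to Ptpn3 with a row of their own, Epb41l4b on the side of lower coordinates and D630039A03Rik on the other, had log2 differences of 0.00 and 0.10 (limma adjusted p = 1 and 0.997).

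Ptpn18, a PEST-motif phosphatase that binds the kinase Csk, had the next largest positive difference. Its log2 signal was 8.03, 7.98 and 8.00 in Ppara-/- samples and 7.09, 7.45 and 7.59 in Ppara+/+ samples. The Ppara-/- samples were nearly identical and all higher, while the Ppara+/+ samples spread over 0.50 with replicate 1 the lowest. The difference of 0.63 (SE 0.14, 95% interval 0.31 to 0.94) did not pass over all genes (limma adjusted p = 0.223). Without Ppara+/+ replicate 1 it was 0.48 (adjusted p = 0.224). With array weights it was 0.52 and passed (adjusted p = 0.0445). These weights were low for that array (0.24) and highest for Ppara-/- replicate 1 (3.59). They raised the number of all genes called from 36 to 277.

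The bases before the RefSeq start sites of Ptpn3 and Ptpn18, the members with the largest positive differences, are given here because PPARA is a transcription factor. They are from RefSeq on GRCm38.p6, for Ptpn3 chr4:57301838-57302087 on the minus strand and for Ptpn18 chr1:34459496-34459745 on the plus strand, each written 5′ to 3′ and ending at the base before the start site. Capitals mark matches on either strand to the PPAR core hexamer AGGTCA, the CCAAT box CCAAT and the GC box GGGCGG.
Ptpn3: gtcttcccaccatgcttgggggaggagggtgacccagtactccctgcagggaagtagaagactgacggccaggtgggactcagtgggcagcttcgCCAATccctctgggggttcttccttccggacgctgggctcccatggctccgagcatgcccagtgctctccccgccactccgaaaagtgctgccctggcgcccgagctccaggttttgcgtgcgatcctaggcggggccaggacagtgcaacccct
Ptpn18: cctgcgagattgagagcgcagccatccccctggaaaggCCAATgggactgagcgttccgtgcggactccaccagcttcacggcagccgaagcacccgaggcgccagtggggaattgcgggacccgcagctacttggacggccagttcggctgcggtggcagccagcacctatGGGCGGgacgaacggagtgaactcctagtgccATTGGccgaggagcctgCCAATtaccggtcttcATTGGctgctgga

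The Ptpn3 window holds 1 of these matches, a CCAAT box starting 155 bases before the start site. The Ptpn18 window holds 5, namely 4 CCAAT boxes in the 2 orientations and 1 GC box. Neither holds the hexamer. Both are rich in G and C, at 64.8% and 64.0% against a median of 52.4% over all 32851 windows of 250 bases in the table. Windows were found for 31 of the 37 members, 45 windows in all. The hexamer occurred in 4 of the 45 (8.89%, against 14.0% of all windows), in Ptpn21, Ptprh, Ptprn and Ptprs. The CCAAT box occurred in 17.8% of the member windows, against 33.8% of all, and the GC box in 51.1%, against 32.7%. The matches marked above do not overlap one another. A match, or the lack of an exact match within 250 bases, is a description of the letters, not of binding. Control of these genes by PPARA was not tested.

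Ptprr and Ptpro, both of receptor type, had the largest negative differences. Ptprr, which binds and dephosphorylates MAP kinases through a kinase interaction motif, had a log2 signal of 5.46, 5.47 and 5.25 in Ppara-/- samples and 5.96, 6.18 and 6.25 in Ppara+/+ samples. Every Ppara-/- sample was lower than every Ppara+/+ sample as deposited. Against the negative-control median of its own array Ptprr stood at 0.83, 0.48 and 0.60 in Ppara-/- samples and 0.80, 1.51 and 1.44 in Ppara+/+ samples, so on that scale the groups overlapped. The difference was -0.74 (SE 0.12, 95% interval -1.01 to -0.47), with limma adjusted p = 0.0908 over all genes. It passed in 1 of 16 other fits, that with array weights (adjusted p = 0.00811), and lay between -0.86 and -0.67 in all 16. The fit with array weights called 277 of all genes, against 36 in the main fit. The cytosolic phosphatases that act on the same kinases, Ptpn7 and Ptpn5, had differences of -0.05 and 0.07. Ptprb, which lies beyond Taf7l2 from Ptprr on chromosome 10, had a difference of -0.03.

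Ptpro, a phosphatase with fibronectin repeats known from kidney podocytes and also made in shorter forms by blood cells, had a log2 signal of 5.54, 5.17 and 5.91 in Ppara-/- samples and 6.16, 6.0 and 6.28 in Ppara+/+ samples. The groups did not overlap, but the nearest values, 5.91 and 6.0, were close, and the Ppara-/- samples spread widely. The difference of -0.61 (SE 0.18) did not pass (limma adjusted p = 0.508). Without Ppara-/- replicate 2 it was -0.42 and without Ppara-/- replicate 3 it was -0.79.

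Smaller separated differences were found for 2 other receptor-type genes. Ptprv, a phosphatase of osteoblasts and embryonic cells that the RefSeq gene table lists as a transcribed pseudogene, had a log2 signal of 6.86, 6.72 and 7.03 in Ppara-/- samples and 6.41, 6.60 and 6.59 in Ppara+/+ samples (difference 0.34, limma adjusted p = 0.683). The next protein-coding gene on chromosome 1, toward higher coordinates, is another member, Ptpn7, with a difference of -0.05. Ptpru, an adhesion-type phosphatase with a MAM domain, was at 7.10, 7.0 and 6.90 against 6.68, 6.82 and 6.85 (difference 0.22, adjusted p = 0.942). The nearest values of Ptpru, 6.90 and 6.85, differed by less than the SD of either group (0.10 and 0.09).

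Separation of the genotypes depended on the scale. After each array's negative-control median was subtracted, a check chosen after the values were seen, Ptprr, Ptpro, Ptprv and Ptpru overlapped between genotypes. On that scale 4 members did not overlap, all with Ppara-/- above, against 4.07% of all genes (2.81% above and 1.26% below). They were Ptpn3, Ptpn18 and 2 members that overlapped as deposited, Ptpn4 and Ptpn12.

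**Figure D2:**
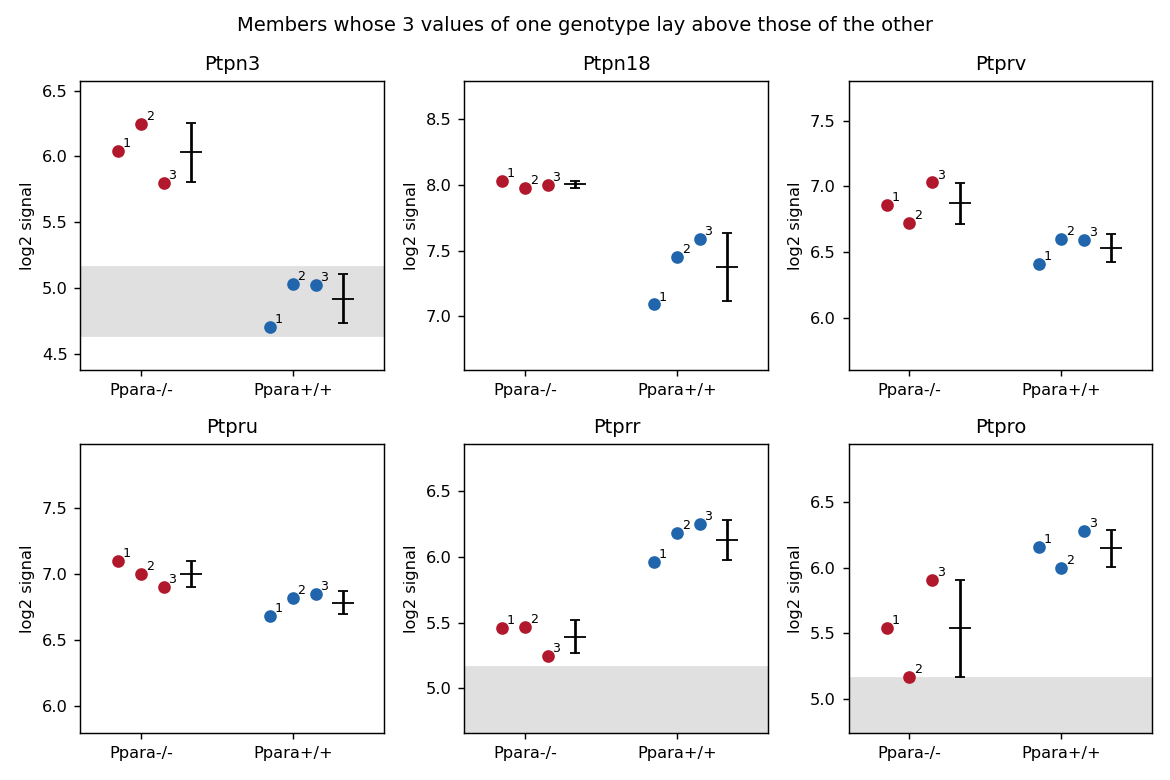
Log2 signal on each array (points, numbered by replicate) of the 6 members whose genotypes did not overlap, with Ppara-/- samples in red and Ppara+/+ samples in blue and the mean ± SD (n = 3) in black beside each group. The grey band is the range of the negative-control medians, 4.63 to 5.16. The Ppara+/+ values of Ptpn3 lie within that band and its Ppara-/- values, 5.80 to 6.25, above it.

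The median log2 difference was 0.03 over the 20 receptor-type genes and 0.04 over the 17 cytosolic ones, against 0.02 over all genes. These medians depended on single arrays, at 0.079 (receptor) and -0.042 (cytosolic) without Ppara-/- replicate 2, and 0.058 and -0.013 without Ppara+/+ replicate 2. The receptor-type median was -0.0092 without Ppara-/- replicate 3 and -0.0050 without Ppara+/+ replicate 1, where the cytosolic one was 0.043 and 0.0033. Without Ppara-/- replicate 1 they were 0.0075 and 0.017, and without Ppara+/+ replicate 3 they were 0.054 and 0.033. Positive differences numbered 12 of 20 and 10 of 17, while 57% of all genes had one. The receptor type spanned -0.74 to 0.34 and the cytosolic type -0.21 to 1.11. Differences smaller than 0.3 in size were found in 17 of 20 receptor-type and 15 of 17 cytosolic genes, beside 91.8% of all genes. The difference between the types was not tested, since their members are not replicates.

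The mean log2 signal over the receptor type was 5.82, 5.72 and 5.84 on the Ppara-/- arrays and 5.77, 5.84 and 5.87 on the Ppara+/+ arrays, so the genotypes overlapped. Over the cytosolic type it was 6.863, 6.955 and 6.851 against 6.845, 6.729 and 6.805. Every Ppara-/- array thus lay above every Ppara+/+ array, by a narrow margin. Without Ptpn3 the cytosolic mean was 6.91, 7.0 and 6.92 against 6.98, 6.84 and 6.92, and the genotypes overlapped, so the separation rested on Ptpn3. The mean over 6 arrays exceeded 8.09, the average 95th percentile of the negative controls, in 4 of 20 receptor-type and 4 of 17 cytosolic genes, beside 3895 of 30743 genes. It was at or under 4.82, the average negative-control median, in 7 receptor-type genes (Ptprb, Ptprd, Ptprg, Ptprk, Ptprm, Ptprq and Ptprz1) and 2 cytosolic ones (Ptpn13 and Ptpn20), so a lower level of these could not be measured.

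**Figure D3:**
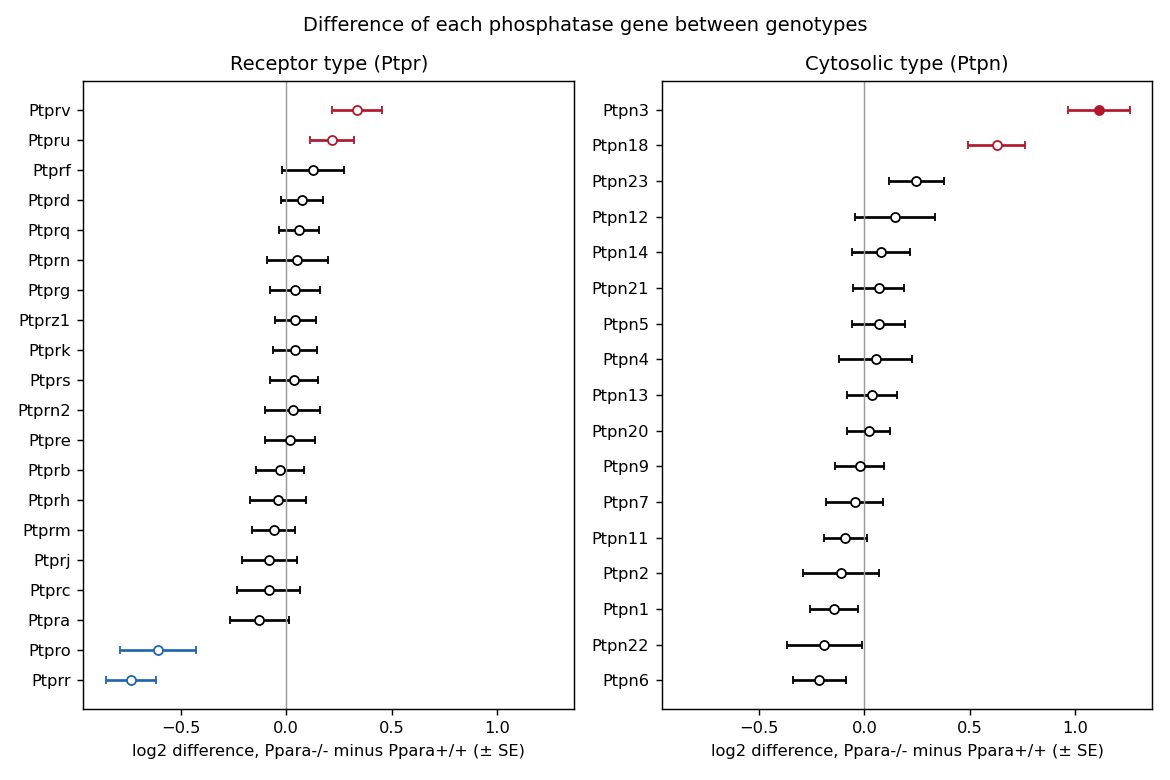
Log2 difference, Ppara-/- minus Ppara+/+, of each receptor-type (left) and cytosolic (right) gene with its moderated SE as bars. Filled points passed the test, and coloured points are genes whose genotypes did not overlap, red where Ppara-/- was higher and blue where it was lower. Ptpn3, at 1.11, is the filled point, and 32 of 37 genes lie within 0.3 of 0.

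None of the phosphatases best known from blood cells passed the test. Ptprc, the pan-leukocyte receptor CD45, was at 9.05, 9.32 and 9.21 in Ppara-/- samples and 9.58, 9.08 and 9.17 in Ppara+/+ samples. These groups overlap, with a difference of -0.08 and a 95% interval of -0.42 to 0.26. Ptpra, a receptor with a short ectodomain that activates Src kinases, was at 8.99, 9.11 and 9.16 in Ppara-/- samples and 9.50, 9.04 and 9.10 in Ppara+/+ samples (difference -0.13). Its relative Ptpre was at 9.14, 9.20 and 9.14 against 9.32, 8.94 and 9.17 (difference 0.02). In both genes, as in Ptprc, Ppara+/+ replicate 1 was the highest of the 6 samples. Ptprj, the growth-restraining receptor CD148, was at 7.86, 7.97 and 7.96 in Ppara-/- samples and 8.17, 7.75 and 8.11 in Ppara+/+ samples (difference -0.08), again with overlap. All 4 had a limma adjusted p of 0.997.

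Ptpn6, the SH2-domain phosphatase that inhibitory receptors of myeloid cells recruit, was at 10.10, 10.30 and 10.09 in Ppara-/- samples and 10.58, 10.19 and 10.36 in Ppara+/+ samples. The groups overlap between 10.19 and 10.30, and the difference was -0.21 with a 95% interval of -0.51 to 0.08. Its relative Ptpn11, which promotes RAS signalling, was at 7.82, 8.02 and 7.89 against 8.04, 7.94 and 8.02, a difference of -0.09 with an interval of -0.32 to 0.14. With 1 array left out the Ptpn6 difference ran from -0.31 (without Ppara+/+ replicate 2) to -0.11 (without Ppara+/+ replicate 1). That of Ptpn11 ran from -0.145 (without Ppara-/- replicate 2) to -0.045 (without Ppara-/- replicate 1).

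Ptpn1, which acts on the insulin receptor and JAK kinases, was at 8.04, 8.27 and 8.04 in Ppara-/- samples and 8.36, 8.14 and 8.28 in Ppara+/+ samples. Ptpn2, a related enzyme that acts on JAK kinases and STAT factors, was at 6.83, 7.16 and 6.99 against 7.52, 6.91 and 6.88. In both, the highest sample was Ppara+/+ replicate 1. Ptpn7, a MAP kinase phosphatase of blood cells, was at 10.01, 10.23 and 9.74 in Ppara-/- samples and 10.08, 9.98 and 10.06 in Ppara+/+ samples, with the wider spread in Ppara-/-. Ptpn12, a PEST-motif enzyme that acts on cytoskeletal proteins, was at 7.49, 8.12 and 7.49 against 7.80, 7.39 and 7.47, with Ppara-/- replicate 2 the highest. Ptpn22, a PEST-motif enzyme that acts on Src family kinases, was at 7.94, 8.22 and 7.91 in Ppara-/- samples and 8.60, 7.92 and 8.12 in Ppara+/+ samples. In these 5 genes the genotypes overlapped, each limma adjusted p was 0.997, and the differences lay between -0.19 and 0.15.

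The remaining members are given by their ranges. Ptpn23, a phosphatase-like protein of endosomal sorting, was at 7.36 to 7.79 in Ppara-/- and 7.25 to 7.44 in Ppara+/+ samples, a difference of 0.25 (limma adjusted p = 0.987). Ptprs, a receptor for proteoglycans, was at 8.49 to 8.84 and 8.63 to 8.68, and its relatives Ptprf and Ptprd had differences of 0.13 and 0.08. Ptpn9, Ptpn5, Ptpn20, Ptprn, Ptprn2, Ptprh, Ptprg, Ptprk, Ptprm, Ptprb, Ptprq and Ptprz1 all differed by 0.07 or less in size, with overlapping groups.

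Within a genotype, members moved together by array according to how bright they were. Among the 14 members with a mean over 7, Ppara-/- replicate 2 was the highest Ppara-/- array in 10 and Ppara+/+ replicate 1 the highest Ppara+/+ array in 11. Among the 23 members at or under 7, the same arrays were the lowest of their genotype in 18 and 18. All genes showed the same tendency, with replicate 2 highest in 49.9% and Ppara+/+ replicate 1 in 56.8% of genes over 7, and lowest in 62.0% and 66.4% of the others. These arrays had the highest negative-control medians, and each genotype holds 1 of them. The division at 7 was chosen after the values were seen. Of those 23 members 4, namely Ptpn3, Ptpn4, Ptpn9 and Ptprr, were highest on Ppara-/- replicate 2 instead. Without both arrays the difference of Ptpn3 was 0.90 (adjusted p = 0.177), that of Ptprr -0.86 and that of Ptpn18 0.50.

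**Figure D4:**
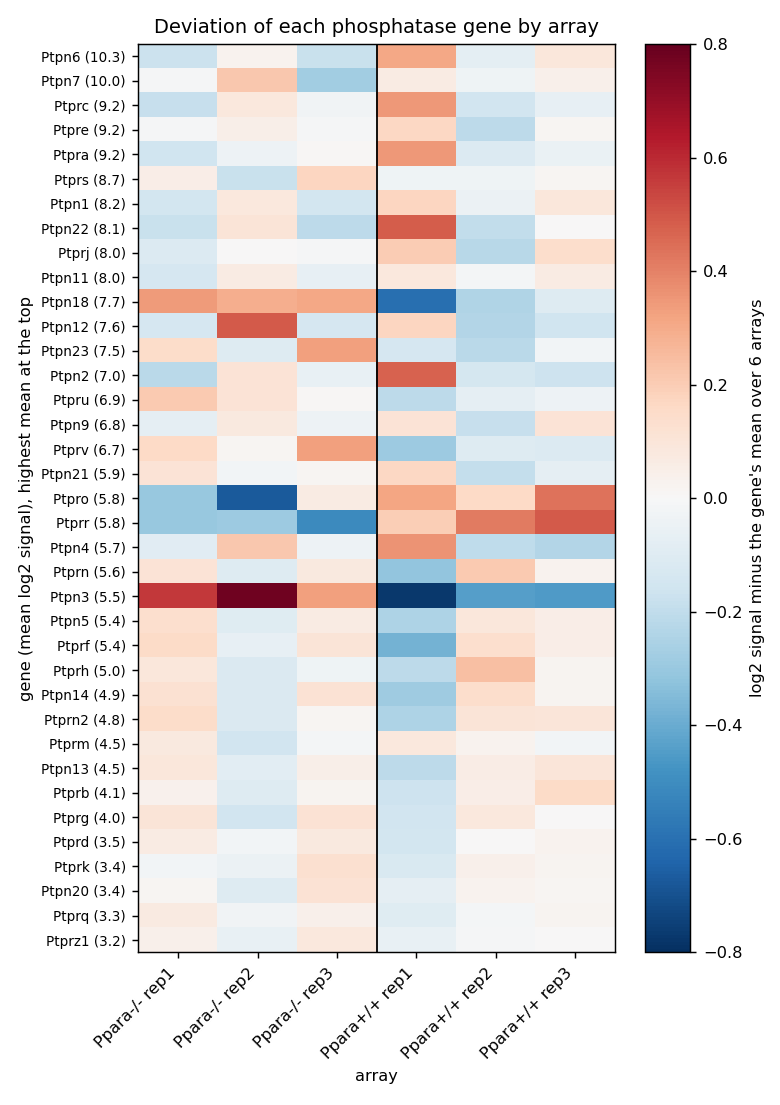
Deviation of each gene's log2 signal from its own mean over the 6 arrays (colour), with genes ordered by mean signal from the brightest at the top and Ppara-/- arrays left of the line. Ptpn3 runs from 0.78 above its mean to 0.77 below it. Most bright genes are red and most dim genes blue on Ppara+/+ replicate 1.

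Genes that work with these phosphatases were compared from lists of kinases, receptors and other phosphatases. A first list held receptors and adaptors that recruit Ptpn6 or Ptpn11, together with Grb2, Sos1, Dok1 and Dok2, which need not recruit them. Of its 29 measured genes, 2 fell, 0 rose and 27 did not pass. The median difference was -0.01, against 0.02 over all genes. Over all genes 0.117% were called and 0.0585% were called lower. At an unadjusted p under 0.05 there were 8 of the 29, against 5.74% of all genes. Among these 8, Dok1 and Dok2 were higher in Ppara-/- samples (differences 0.30 and 0.61) and the rest were lower. All lists were chosen with earlier results of these data known, so such counts are not independent comparisons. The genes called lower were Siglece, an inhibitory receptor for sialic acids, and Btla. Siglece was at 7.86, 8.14 and 7.91 in Ppara-/- samples and 9.13, 8.96 and 8.99 in Ppara+/+ samples (limma adjusted p = 0.0195). Btla was at 5.55, 5.30 and 5.73 against 7.78, 7.06 and 6.87 (adjusted p = 0.0438). Lilrb4a, another inhibitory receptor, was at 9.10, 9.53 and 9.61 against 10.66, 10.33 and 10.91 (adjusted p = 0.0708). Ptpn6 itself differed by -0.21. The lower summed level of macrophage markers given above stands beside these 2 calls, and its part in them was not tested.

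In the other lists no gene passed. The lists held 17 measured Src family kinases and regulators (median difference 0.01), 21 JAK-STAT genes (0.02), 16 growth factor receptors of blood cells, which were receptor tyrosine kinases apart from the cytokine receptor Epor (0.02) and 23 other tyrosine phosphatases and relatives (-0.04). At an unadjusted p under 0.05 limma counted 0, 0, 5 and 2 genes of these lists, against 5.74% of all genes. The smallest p among Src kinases and regulators was that of the ubiquitin ligase Cbl, at 10.25 ± 0.37 in the Ppara-/- group and 10.61 ± 0.37 in the Ppara+/+ group, followed by Matk and Yes1 with differences of 0.22 and 0.13. Among JAK-STAT genes Cish, Socs6 and Stat4 differed by 0.27, -0.22 and 0.58 (limma adjusted p = 0.958, 0.987 and 0.987). The receptor tyrosine kinase Pdgfrb was at 5.71 ± 0.24 in Ppara-/- and 6.74 ± 0.21 in Ppara+/+ samples (limma adjusted p = 0.0719), Csf1r at 8.35 ± 0.53 and 9.28 ± 0.22 and Kit at 8.32 ± 0.20 and 7.78 ± 0.29. Among the other phosphatases, Ubash3b, which acts on the kinase Syk, was at 7.35 ± 0.18 and 7.66 ± 0.13, and the cell cycle phosphatase Cdc25a at 8.06 ± 0.30 and 8.41 ± 0.04 (SD, n = 3; adjusted p = 0.821 and 0.868). Ptp4a2, a small membrane-bound phosphatase, differed by -0.35.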

How the data were processed

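Total RNA of 6 samples, grouped by genotype from their titles, was profiled on Affymetrix arrays. The authors deposited log2 signals, 1 per array row and sample. The submitters' processing notes name RMA and limma without versions or order. No source used here settles the array model, annotation or build behind the values, so the part of each gene that its probes match is unknown. Of 72688 rows, 6732 were controls, 31216 were paired with 1 gene by the platform annotation (updated through gene IDs with the RefSeq table of GRCm38.p6), 1534 with several and 33206 were unnamed. For each of 30743 genes the row with the highest mean over 6 arrays was used, without a filter on dim rows.

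The genotypes were tested with lmFit and eBayes of limma 3.58.1 (R 4.3.3), two-sided and without covariates, adjusted by Benjamini-Hochberg over all genes with a threshold of 0.05. Adjusted p-values come from it unless another setting is stated. Other priors, normalizations, filters, weights, a replicate block, a covariate and fits without single arrays were tried. The fit was run on simulated data with independent noise on each array. Such data lack the array pattern by brightness given above, so the run does not show how the fit behaves under it. Intervals are at 95% from the moderated SE. The number of arrays limits the precision. Tables were made with pandas 2.3.3 under Python 3.11.15, plots with matplotlib 3.10.9. The members, lists and rules were chosen with earlier results of these data known. Per-array values are given for Ptpn3, for members that passed, had an unadjusted p under 0.05 or did not overlap between genotypes, and for 13 phosphatases with a role in blood cells, and up to 3 genes are named per list, by threshold and then by smallest p. Promoter windows are RefSeq's.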

Additional observations from a re-analysis of the deposited data

How the results depend on the processing

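With 1 array left out, limma called 6 to 36 genes and 0 to 0 phosphatase members, against 36 genes and 1 member (Ptpn3) with all 6. All genes called numbered 69 with a trended and robust prior, 13 with median centring, 14 with cyclic loess, 22 with quantile normalization of the named genes, 277 with array weights, 12 with the replicate number as a block, 74 at an adjusted p under 0.1, 1 of 3895 genes above the 95th percentile of the negative controls and 0 without both arrays of highest negative-control signal (which leaves 2 arrays a genotype). Members called numbered 0 with median centring, cyclic loess, quantile normalization, the replicate block, that filter on dim genes (8 members left, without Ptpn3), both those arrays left out and the negative-control median as a covariate. They numbered 3 with array weights (Ptpn3, Ptprr and Ptpn18) and 2 at an adjusted p under 0.1 (Ptpn3 and Ptprr). Ptpn3 had an adjusted p of 0.0906 with the replicate block and 0.0999 with the covariate. Deviations of same-numbered replicates correlated at -0.33, -0.47 and 0.11, and the numbers were not taken as pairs in the main fit. The largest correlation, 0.50, was between Ppara-/- replicate 2 and Ppara+/+ replicate 1, the arrays of highest negative-control signal. The check cannot exclude pairing, since these correlations also carry the array pattern by brightness given above. The cause of the lost calls was not tested, apart from the fewer arrays or genes that some fits hold by construction. Positive differences numbered 0 of 4 cytosolic and 2 of 4 receptor-type members under the stricter filter on dim genes, and 7 of 13 receptor-type members above the negative-control median. Members whose genotypes did not overlap numbered 4 after subtraction of each array's negative-control median, an alternative chosen after seeing the data, against 6 as deposited. For the 17 members tracked, 249 of 279 values kept direction and side of the threshold. That count says little about stability, since of these members only Ptpn3 passed in the main fit. Some settings also leave the differences unchanged by construction. Ptpn3 lost its call in 12 of its 16 other fits.

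Signs turned only in members with differences under 0.2 in size. With 1 array left out, Ptprc ran from -0.18 to 0.068, Ptpra from -0.21 to 0.017, Ptpre from -0.085 to 0.105, Ptpn2 from -0.22 to 0.098, Ptpn7 from -0.165 to 0.080, Ptpn12 from -0.063 to 0.27 and Ptpn22 from -0.34 to 0.0033. Without both arrays of highest negative-control signal Ptprc was at 0.0050, Ptpra at 0.0050 and Ptpn2 at 0.015. With the covariate Ptprc was at 0.023, Ptpn2 at 0.027 and Ptpn7 at 0.014. Cyclic loess put Ptpn7 at 0.0098 and median centring put Ptpre at -0.0033. In 9 members the mean was at or under the average negative-control median. In 27 of the 37 no array exceeded the 95th percentile of its negative controls. These 27 include Ptpn3, Ptprr, Ptpro, Ptprv and Ptpru, so levels near the controls limit what can be seen in them too.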
